A study of Mus musculus with 2 samples.

Results

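Insulin and the insulin-like growth factors act through a small set of related genes, and 10 of them were described here in the cerebral cortex of old mice. They were Igf1, Igf1r, Insr, Irs1, Irs2, Igfbp2, Igfbp4, Igfbp5, Foxo1 and Foxo3, taken by gene symbol from the names in the transcript table and joined to the other tables by gene identifier. All 10 were found among the 55536 annotated genes, with 38 annotated transcripts between them. Total RNA was sequenced from left cerebral cortex. The mice were males of B6CASTF1/J, an F1 cross between B6 and CAST, and were 18 to 20 months old. It held 1 group of 2 libraries, labelled biological replicates 1 and 2, each made from 300 ng of RNA with ERCC spike-ins. No treatment, young animal or second genotype was part of it, so no condition could be compared and no p-value is given. Both libraries carry the same donor identifier but different biosample identifiers. Whether they came from separate animals is not stated, so the spread between them may be technical.

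In this pathway a ligand, insulin or IGF1, binds a receptor tyrosine kinase, Insr or Igf1r, which phosphorylates the adaptors Irs1 and Irs2. The adaptors recruit PI3 kinase, AKT is switched on, and AKT phosphorylates the FOXO transcription factors and so keeps them out of the nucleus. Secreted IGF binding proteins hold the ligand outside the cell, and in the brain the pathway is known for its part in growth, energy use, neuronal survival and ageing.

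The splice forms that the results turn on are shown first, 5′ to 3′ along the transcript, from the GENCODE M21 transcripts on GRCm38 (mm10). The insulin receptor gene has a short exon of 36 bases (chr8:3181702-3181737, minus strand), a whole number of codons. Its inclusion gives the isoform known as B and its skipping the isoform known as A, which neurons are known to favour. It is shown in capitals between 15 bases of each neighbouring exon, above the junction that skips it.
Insr-203, short exon included: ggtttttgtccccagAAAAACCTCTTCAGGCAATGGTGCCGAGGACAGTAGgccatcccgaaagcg
Insr-201, short exon skipped: ggtttttgtccccaggccatcccgaaagcg
Igf1 has an alternative exon of 52 bases (chr10:87915298-87915349, plus strand), which is not a whole number of codons and so changes the reading frame of the E peptide, the tail that is cut from the IGF1 precursor. It is shown in the same way.
Igf1-203, alternative exon included: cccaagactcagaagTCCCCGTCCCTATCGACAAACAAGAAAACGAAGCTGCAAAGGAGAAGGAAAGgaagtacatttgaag
Igf1-202, alternative exon skipped: cccaagactcagaaggaagtacatttgaag
Igf1 also starts from alternative leader exons that are spliced to the same next exon. Capitals mark the last 15 bases of each leader exon, chr10:87859068-87859412 for the first and chr10:87860606-87861385 for the second, both on the plus strand. In the second these bases are all coding and open with the start codon.
Igf1-202, first leader exon: TGTGACTTCTTGAAGataaagatacacatc
Igf1-204, second leader exon: ATGACCGCACCTGCAataaagatacacatc

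Igf1, the ligand gene (ENSMUSG00000020053.18, chr10:87858265-87937042, plus strand), had a level of 4.08 TPM in replicate 1 and 4.01 TPM in replicate 2, a mean of 4.05 ± 0.05 (SD, n = 2). TPM is a level divided by transcript length and scaled to a fixed total over all features of a library. It was the lowest of the 10 genes and stood at rank 10835 of the 12868 nuclear protein-coding genes detected, where detected means at least 1 TPM in each library. All 10 genes passed that line, against 58.5% of the 22015 nuclear protein-coding genes annotated. The other ligands split apart. Igf2, a growth factor that choroid plexus and meninges are known to make in the adult brain, stood at 44.8 and 49.5 TPM. Ins1 and Ins2, the insulin genes of the mouse, were listed at 0 in both libraries.

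The level of Igf1 was 11.6-fold below that of Igf2, a log2 ratio of -3.46 in replicate 1 and -3.63 in replicate 2 (mean -3.54 ± 0.12). A pair was called different if the genes' deposited TPM intervals stood clear of each other in each library, with the same gene on top, and this pair was called. In whole tissue, fewer cells of a type and less RNA per cell cannot be told apart, which holds for every level given here. Of 6 marker genes of meningeal fibroblasts 5 were detected, with a summed level of 35.9 and 34.4 TPM, and of 5 choroid plexus markers 3 were, with a sum of 12.8 and 20.5 TPM. Ttr, the carrier of thyroid hormone and retinol that defines choroid plexus, made up most of that sum at 9.59 and 17.1 TPM. The lowest choroid plexus marker, Folr1, had 1 count in each library. The part of these cell types in the Igf2 level was not tested.

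Igf1 RNA was mostly the form that opens with the first leader exon and skips the alternative exon. Igf1-202, which has both features, held 72.6 ± 2.3% of the gene's TPM and rested on 313 and 410 expected counts, nearly all of the gene's 338 and 428. Together, transcripts containing the first leader exon held 93.9% and 70.9% of TPM in replicates 1 and 2. They include Igf1-207, which starts upstream of that exon. Transcripts containing the second leader exon held 6.13% and 29.1%. The second group rested on 6.43 and 18.0 counts. As a share of counts the first group held 98.1% and 95.8%. By the deposited posterior mean percent it held 71.7% and 66.5%, and the second group 28.3% and 33.5%. The gap between the libraries in TPM was therefore narrower by either of these measures, and the share of the second leader exon in replicate 1 depended on the measure. In the kallisto-layout table, the second deposited estimate from the same reads, the first group held 84.4% and 59.4% of TPM.

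The 52-base exon of Igf1 was included as an internal exon in transcripts with 16.7% and 23.6% of the gene's TPM, on 16.0 and 10.8 counts. Different transcripts carried it in the RSEM-layout table: Igf1-203 held all of it in replicate 1 and Igf1-206 all of it in replicate 2. In the kallisto-layout table the share was 15.6% and 11.9%. Both tables therefore placed most Igf1 RNA in the skipping form, 80.1% and 74.4% in the one and 80.6% and 86.6% in the other, while the included share rested on fewer than 20 counts in either library. Igf1-201, which ends inside a longer version of the exon, held 3.19% and 1.99%.

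**Figure D1:**
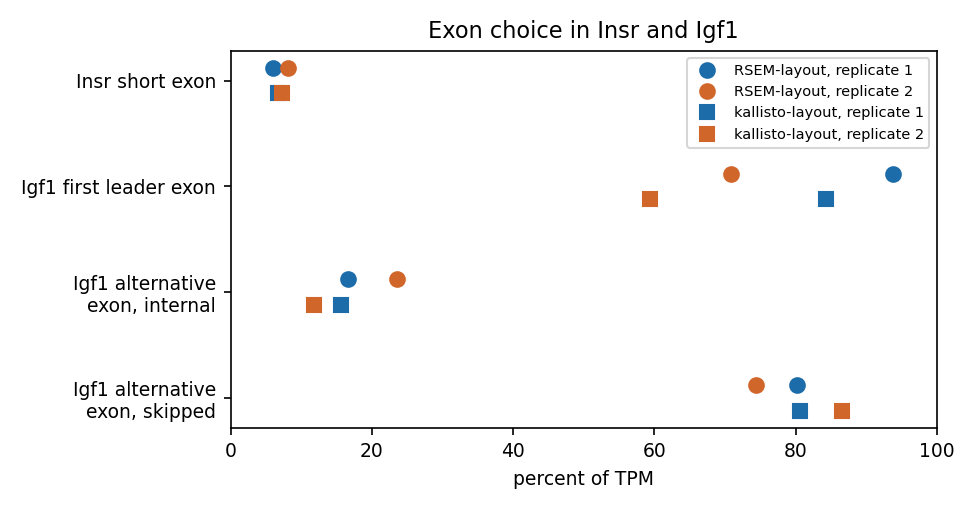
Percent of TPM held by transcripts with each exon choice: the Insr short exon (of the TPM of Insr-201 and Insr-203), and, of all Igf1 TPM, the first leader exon and the alternative exon (included as an internal exon, or skipped). In the RSEM-layout (circles) and kallisto-layout (squares) tables, replicates 1 and 2 of the Igf1 first leader exon lie at 93.9% and 70.9% in the first table and 84.4% and 59.4% in the second, the widest gap between replicates among these choices.

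Igf1r, the IGF1 receptor (ENSMUSG00000005533.10, chr7:67952827-68233668, plus strand), stood at 24.9 TPM in replicate 1 and 20.2 TPM in replicate 2, a mean of 22.6 ± 3.34. Insr, the insulin receptor (ENSMUSG00000005534.10, chr8:3122061-3279617, minus strand), stood at 22.6 and 17.9 TPM, a mean of 20.2 ± 3.32. Both receptors were higher in replicate 1, and they stayed side by side within each library. Their log2 ratio, Igf1r over Insr, was 0.14 in replicate 1 and 0.18 in replicate 2 (mean 0.16 ± 0.02, 1.12-fold), and the pair was not called because its TPM intervals overlapped.

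That near-equality held only when all annotated transcripts were summed. Insr-202 is annotated as a retained intron, a transcript that keeps an intron and has no annotated coding sequence, and it held 32.0% and 31.3% of Insr TPM on 169 and 182 counts. All retained-intron transcripts of Insr held 39.5% and 36.1%, those of Igf1r 16.4% and 11.5%, and those of Igfbp2 1.43% and 1.54%. Among the 6293 nuclear protein-coding genes with such a transcript the median was 12.96% in replicate 1 and 8.73% in replicate 2. Insr and Igf1r thus lay above that median in both libraries, Insr by more, and Igfbp2 below it. In the kallisto-layout table Insr-202 held less of the Insr TPM, 22.7% and 26.1%. With protein-coding transcripts only, an alternative chosen after seeing the data, the level of Igf1r was 19.4 ± 2.08 TPM and that of Insr 12.5 ± 1.59 TPM, a log2 ratio of 0.63 ± 0.03 (1.55-fold).

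Insr RNA mostly skipped the short exon. Insr-201, the full-length transcript that skips it, stood at 12.8 and 10.5 TPM in replicates 1 and 2. Insr-203, the protein-coding transcript that includes it, stood at 0.82 and 0.92 TPM. Of the TPM of both, the including form held 6.003% and 8.06% (mean 7.03 ± 1.46%), and by the kallisto-layout estimate it held 6.71% and 7.22% (6.96 ± 0.36%). These shares rest on little: Insr-203 is annotated as a fragment of 672 bases with neither end defined, and had 7 and 10.9 counts against 1767 and 2010 for Insr-201. The retained-intron transcript Insr-204, which runs through the same exon without a splice, had 98 and 70 counts.

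The other receptors of the pathway were Igf2r, the scavenger receptor of IGF2, Lrp1, a large endocytic receptor, and Insrr, an orphan relative of Insr. Lrp1 was the highest, at 160 and 114 TPM, and Insrr the lowest, at 0.42 and 0.31 TPM. Igf2r was called lower than Igf1r in TPM, by 0.89 ± 0.13 on the log2 scale (1.86-fold).

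Irs2, the adaptor that couples both receptors to PI3 kinase (ENSMUSG00000038894.7, chr8:10984681-11008458, minus strand), stood at 44.0 TPM in replicate 1 and 40.2 TPM in replicate 2. Its mean of 42.1 ± 2.66 was the highest of the 10 genes, at rank 2682. Its deposited interval, 40.8 to 43.4 TPM in replicate 1 and 37.8 to 39.97 TPM in replicate 2, lay below its own TPM in both libraries, which was true of no other gene of the 10. The related adaptor Irs1 (ENSMUSG00000055980.2, chr1:82233101-82291416, minus strand) stood at 8.48 and 6.59 TPM, a mean of 7.54 ± 1.34. Irs2 over Irs1 was called, at log2 ratios of 2.37 and 2.61 (mean 2.49 ± 0.17, 5.62-fold), and the kallisto-layout table gave 2.48. Each of these genes has a single annotated transcript, so no division of reads among isoforms enters the comparison. Of the 9 other adaptors, which link the receptors to PI3 kinase and RAS signalling or damp them, 7 were detected. Grb2, the link to RAS, led them at 92.9 and 88.6 TPM, and Irs4 was lowest at 0.14 and 0.25 TPM.

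The 3 binding protein genes lay close together. Igfbp4 (ENSMUSG00000017493.12, chr11:99041244-99054392, plus strand) stood at 34.1 and 31.5 TPM, a mean of 32.8 ± 1.82. Igfbp2 (ENSMUSG00000039323.18, chr1:72824503-72852474, plus strand) stood at 28.6 and 27.3 TPM, a mean of 27.95 ± 0.92. Igfbp5 (ENSMUSG00000026185.8, chr1:72857932-72874884, minus strand) stood at 28.65 and 26.9 TPM, a mean of 27.8 ± 1.27. Igfbp2 and Igfbp5 are neighbours on chromosome 1 whose 3′ ends face each other, and their log2 ratio was -0.01 ± 0.02, not called. Igfbp4 over Igfbp2 was also not called, at 0.23 ± 0.03, and it turned to -0.95 ± 0.08 with protein-coding transcripts only. Igfbp5 was called lower than Igfbp4, at -0.25 and -0.23 in replicates 1 and 2 (mean -0.24 ± 0.01, 1.18-fold), but that order turned in counts, where length is not divided out (1.41), and with protein-coding transcripts only (0.96).

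Igfbp4 stood apart from the other binding proteins in its transcripts. The following first exons (chr11:99041244-99041845, chr11:99044766-99044912 and chr11:99043597-99043624, plus strand, in the order printed) are spliced to the same next exon, and only the first belongs to a protein-coding transcript. Capitals mark the last 15 bases of the first exon.
Igfbp4-201, protein coding: GCCTGCAGACCTCTGacaaggatgagagcg
Igfbp4-202, processed transcript: TTTGGAGACCATAGGacaaggatgagagcg
Igfbp4-203, processed transcript: CCCCAGGTGAAGATGacaaggatgagagcg
In the RSEM-layout table Igfbp4-203, of 785 bases, led with 55.4% and 55.9% of the gene's TPM on 193 and 250 counts. Igfbp4-201 held 38.7% and 40.8% on 731 and 992 counts, most of the gene's 935 and 1250. By the deposited posterior mean percent Igfbp4-203 held 43.1% and 47.9% and Igfbp4-201 37.5% and 39.0%. By that measure noncoding transcripts did not hold most of the gene in replicate 1. The kallisto-layout table led with Igfbp4-202 instead, at 49.3% and 50.6%, a transcript listed at 0 in the RSEM-layout table. Protein-coding transcripts of Igfbp4 summed to 14.3 ± 1.27 TPM. The tables therefore did not name the same noncoding form.

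Of the 6 other binding protein genes 3 were detected. Igfbp6, which prefers IGF2, led them at 27.9 and 25.9 TPM, close to Igfbp2 and Igfbp5, and Igfbp1 was lowest, at 0.05 TPM in replicate 1 and listed at 0 in replicate 2. Among 5 proteases and stanniocalcins that cut the binding proteins or block that cut, 2 were detected. Htra1, a secreted serine protease, stood at 86.0 and 80.1 TPM. Pappa, the protease known for cutting Igfbp4, was lowest at 0.15 and 0.16 TPM.

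Foxo3 (ENSMUSG00000048756.11, chr10:42181841-42276755, minus strand), a transcription factor that AKT restrains, stood at 37.5 TPM in replicate 1 and 30.9 TPM in replicate 2, a mean of 34.2 ± 4.63. Its relative Foxo1 (ENSMUSG00000044167.6, chr3:52268336-52353221, plus strand) stood at 5.02 and 5.56 TPM, a mean of 5.29 ± 0.38. In TPM Foxo3 was lower and Foxo1 higher in replicate 2, and their levels were far apart in both. In counts corrected for depth, given below, the Foxo3 difference was not called. Foxo3 over Foxo1 was called, at log2 ratios of 2.90 and 2.47 (mean 2.69 ± 0.30, 6.44-fold), and the kallisto-layout table gave 2.72. Foxo3-203 held 86.5 ± 6.1% of the Foxo3 TPM. The other FOXO genes lay nearer to Foxo1 than to Foxo3: Foxo4 was at 10.4 and 8.22 TPM and Foxo6 at 8.18 and 7.72 TPM.

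**Figure D2:**
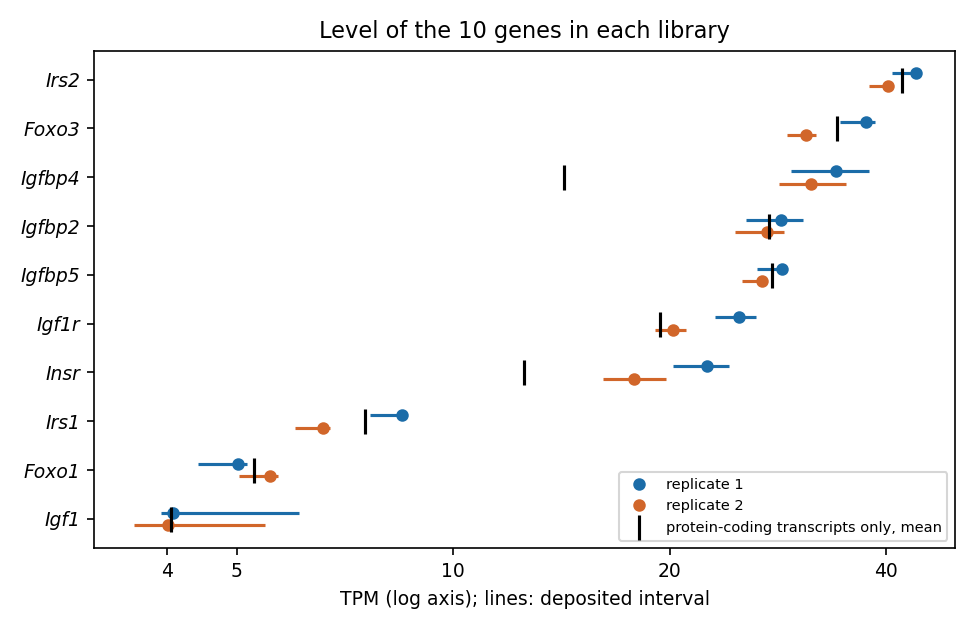
TPM of the 10 genes in replicates 1 and 2 (points), with the deposited interval as a line and the mean over protein-coding transcripts as a black tick. Irs2 lies at the top at 44.0 and 40.2 TPM and Igf1 at the bottom at 4.08 and 4.01 TPM, and the tick stands well below the points for Igfbp4 and Insr.

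In order of level the 10 genes ran Irs2, Foxo3, Igfbp4, Igfbp2, Igfbp5, Igf1r, Insr, Irs1, Foxo1 and Igf1. Of the 9 steps between neighbours 4 were called: Irs2 above Foxo3, Igfbp5 above Igf1r, Insr above Irs1, and Irs1 above Foxo1. No step was called in the run from Foxo3 through the 3 binding proteins, between the receptors, or between Foxo1 and Igf1. At a mean of 10 TPM or more stood 7 of the 10. In each adaptor and FOXO pair 1 gene was well above the other, while the receptor pair and the pair Igfbp2 and Igfbp5 were near equal in TPM over all transcripts. Of the 8 pairs compared 5 were called, with the first gene higher in 2.

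Among the 7 genes with more than 1 annotated transcript, the leading transcript was the same in both replicates in 7, and the same in both replicates and both tables in 6, the exception being Igfbp4. Over the 9554 genes at a TPM of 5 or more with at least 2 transcripts these shares were 89.5% and 67.4%. That set holds 6 of the 7 and not Igf1, whose TPM is under 5. Igfbp4 alone was led by a noncoding transcript in both replicates, which was the case in 5.92% of the 9375 nuclear protein-coding genes of that set. The remaining leads were protein coding: Igf1r-201 held 86.1 ± 3.5%, Insr-201 57.8 ± 1.3%, Igfbp2-201 95.4 ± 4.5% and Igfbp5-201 100%. In the kallisto-layout table Igfbp5-201 held 91.2%.

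**Figure D3:**
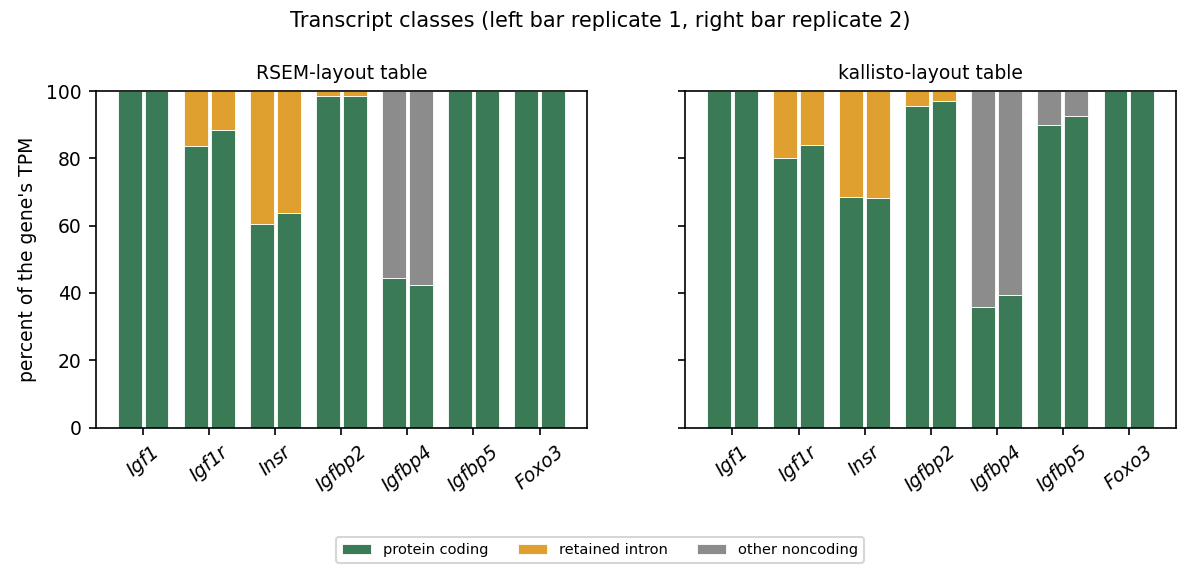
Percent of each gene's TPM in protein-coding, retained-intron and other noncoding transcripts for the 7 genes with more than 1 transcript, left bar replicate 1 and right bar replicate 2, in the RSEM-layout table (left) and the kallisto-layout table (right). Insr shows a retained-intron share of 39.5% and 36.1% in the RSEM-layout table, and noncoding transcripts make up most of Igfbp4 in both.

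The kinases, brakes and FOXO targets on the lists were all detected. All 15 genes of the PI3K, AKT and mTOR kinase list were detected, with a median level of 46.3 TPM in replicate 1 and 44.2 TPM in replicate 2. Pik3cb, a catalytic subunit of PI3 kinase, was lowest at 11.4 and 10.5 TPM. All 8 genes of the list of brakes were detected too. Socs3, an inducible inhibitor of receptor signalling, was lowest of them at 1.83 and 2.11 TPM. Of the 13 genes known as FOXO targets all were detected. Sod2, the mitochondrial superoxide dismutase, was highest at 112 and 117 TPM and Bcl2l11, a promoter of apoptosis, lowest at 4.60 and 2.39 TPM. Over all lists, 53 of the 64 other genes were detected.

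**Figure D4:**
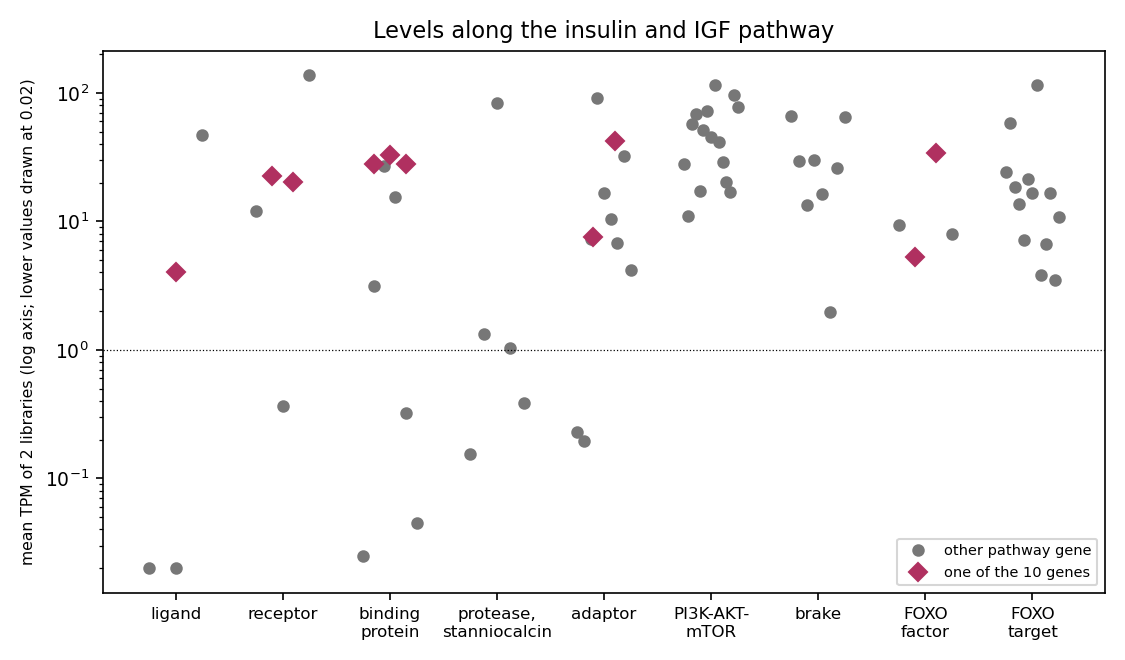
Mean TPM (log axis) of the 10 genes (diamonds) and of the 64 other pathway genes by list; values under 0.02 TPM are drawn at 0.02 and the dotted line marks 1 TPM. The kinase, brake and FOXO target lists lie wholly above that line, and Ins1 and Ins2 lie at the lower edge.

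Between the libraries the 10 genes differed little. Replicate 1 held 22827984 and replicate 2 29897486 expected counts over annotated genes, and their log2 ratio, replicate 2 over replicate 1, was computed from counts after TMM scaling, a correction for depth and composition. A gene was called higher or lower where the 95% counting interval of that ratio excluded 0. The interval covers counting error only, so a call describes these libraries and has no replicate check. Of the 10 genes 1 was higher in replicate 2 and 3 were lower, against 28.1% higher and 15.6% lower among the 12347 annotated genes whose mean count reached 100. None of the 10 passed 2-fold, which 0.251% of those genes did upward and 0.713% downward. The median ratio of the 10 was 0.0008, against 0.05 over all genes tested.

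The gene higher in replicate 2 was Foxo1, with 639 and 985 counts in replicates 1 and 2, a log2 ratio of 0.28 (interval 0.14 to 0.43), or 21.4%. Irs1 was lower, with 1140 and 1234 counts, a ratio of -0.23 (-0.35 to -0.11). Insr was lower, with 2041 and 2273 counts, a ratio of -0.19 (-0.28 to -0.10). These are small differences, and the other lower gene was smaller still: Igf1r had 3631 and 4295 counts and a ratio of -0.10 (-0.17 to -0.04), which in the kallisto-layout counts was -0.06 with an interval that included 0. The remaining 6 genes ran from Foxo3 at -0.05 (-0.11 to 0.02) to Igfbp4 at 0.08 (-0.05 to 0.20). Igf1 lay between them at 338 and 428 counts and a ratio of -0.0034 (-0.21 to 0.21).

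Transcript length moved with these ratios. Among nuclear protein-coding genes whose mean count reached 100, a grouping by length chosen after seeing the data gave a median ratio of 0.12 for the 2102 genes under 1500 bases and of -0.11 for the 125 genes of 9000 bases or more. Igf1r, in the longest group, stood near its middle, with 52.0% of the group lower. Irs1 had 24.8% of the same group lower. Insr had 12.7% of the 997 genes of 5000 to 7000 bases lower, so it stood toward the bottom of genes of its length. Foxo1 stood near the top of its length group, with 96.6% of the 267 genes of 7000 to 9000 bases lower. The median of that group was -0.05. The share of all counts in retained-intron transcripts was 4.07% in replicate 1 and 2.92% in replicate 2, and its part in the lower Insr count was not tested.

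Marker genes of several cell types moved between the libraries, those of the striatum most by list median. All 8 markers of striatal projection neurons, the cells of the nucleus under the cortex, were detected. Their summed level was 177 TPM in replicate 1 and 375 TPM in replicate 2. All 8 were past 2-fold higher, against 0.251% of all genes tested, with a median log2 ratio of 1.11. By the same call as above 4 of 6 inhibitory neuron markers, 4 of 5 oligodendrocyte markers and 3 of 5 microglial markers were higher in replicate 2 and none of these lower. Of 5 endothelial markers 2 were higher and 1 lower, of 5 astrocyte markers 2 higher and 1 lower, and of 4 excitatory neuron markers 1 higher and 2 lower. Over all genes tested the shares were 28.1% higher and 15.6% lower. Single markers, all chosen after their values were seen, passed the Foxo1 ratio of 0.28. Among them were Slc32a1 of inhibitory neurons at 0.37, Cx3cr1 of microglia at 0.35, Gfap of astrocytes at 0.31 and Cldn5 of endothelium at 0.41. The medians of their lists did not pass it, at 0.15, 0.16, 0.04 and 0.10 in that order. Slc1a2 of astrocytes and Flt1 of endothelium were called lower, at -0.05 and -0.17. The part of these cell types in the higher Foxo1 count was not tested. Summed levels in TPM moved less than the striatal sum: in replicates 1 and 2 they were 1820 and 1671 TPM for excitatory neurons, 504 and 500.2 TPM for inhibitory neurons, 1050 and 963 TPM for astrocytes, 109 and 111 TPM for microglia, 721 and 735 TPM for oligodendrocytes, and 71.9 and 69.5 TPM for endothelium. All markers of these 6 lists were detected. The 8 striatal and all 4 thalamic markers were detected as well, so detection alone does not set cortex apart from those regions.

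**Figure D5:**
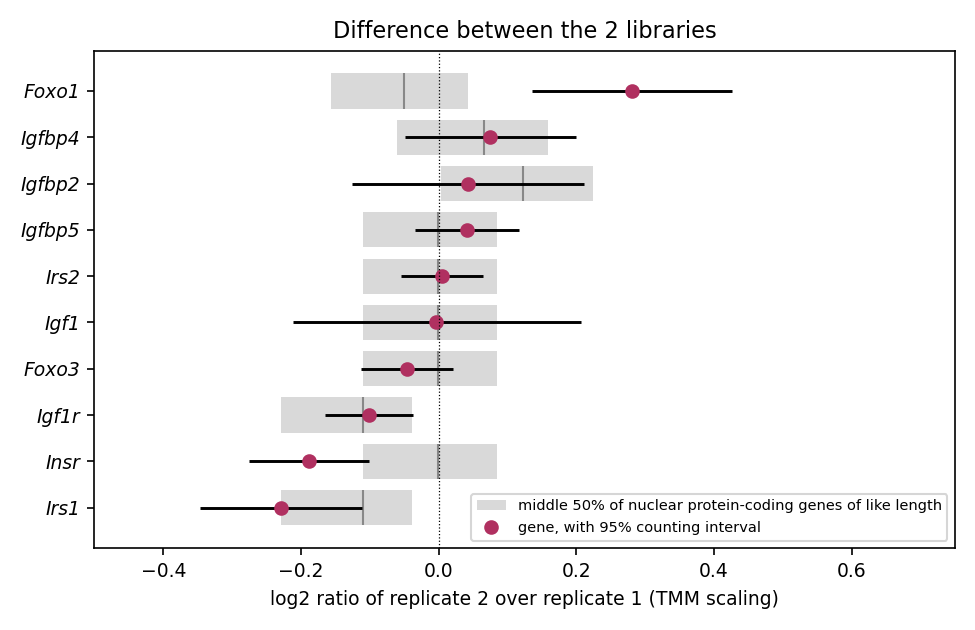
Log2 ratio of replicate 2 over replicate 1 for the 10 genes with its 95% counting interval, beside the middle 50% of nuclear protein-coding genes of like length in grey. Foxo1 at 0.28 lies above its grey range, Insr at -0.19 below its own, and Igf1r at -0.10 inside. Length is the average over a gene's transcripts, 6185 bases for Insr against 9355 bases for Insr-201. The middle 50% of genes of 9000 bases or more, -0.23 to -0.04, would include Insr.

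Of the other 64 pathway genes 51 reached a mean count of 100. Among them 14 were higher and 5 lower in replicate 2, beside the 28.1% and 15.6% of all genes, and none was past 2-fold. Of the 15 genes of the PI3K, AKT and mTOR kinase list, which also holds subunits that are not kinases, 3 were higher and 1 lower. The lower one was Pik3r1, a regulatory subunit of PI3 kinase, and Pik3cb had a ratio of 0.0058 (-0.12 to 0.13). Of the 7 brakes with enough counts 2 were higher and 0 lower. Of the 12 FOXO targets with enough counts 4 were higher and 1 lower, Sod2 among the higher at 0.05 (0.0010 to 0.10). Of the 7 adaptors 3 were higher and 2 lower, Grb2 standing at 0.14 (0.07 to 0.21). Lrp1 was lower at -0.19 (-0.22 to -0.17). Igf2 was higher at 0.22 (0.12 to 0.33) on 1269 and 1881 counts. Of the 2 choroid plexus markers with enough counts, Ttr was higher too, at 0.97 (0.70 to 1.25) on 155 and 385 counts, and Kl was not called, at -0.04 (-0.42 to 0.34). Clic6, another, had 21 and 57 counts. Of the 5 meningeal fibroblast markers with enough counts 1 was higher and 0 lower. The part of these cell types in the Igf2 difference was not tested.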

How the data were processed

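Total RNA of 2 libraries of 1 group was analysed from 3 deposited tables each. Assembly mm10 and annotation M21 were used, per the deposited file lists. By their columns, the gene table and a transcript table are laid out as RSEM writes them, and were derived from a transcriptome alignment. The other transcript table is laid out as kallisto writes it, and was derived from a read file. As to aligner, quantifier, versions and use of strand: not given in the sources used here. Per the file headers, the deposited expected counts and estimated counts are reads per feature, not normalized. The deposited TPM values are divided by length and scaled to a fixed total over all listed features. Their intervals are deposited bounds of unstated level. Each transcript's percent of its gene's TPM is a deposited column too.

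Of the 81881 rows for genes, spike-ins and tRNA entries, 55536 matched the annotation by identifier. Expected counts were rounded and scaled by TMM (edgeR 4.0.16, R 4.3.3), with factors of 1.02 and 0.984. For the log2 ratio 0.5 was added to the counts, and 0.34, the difference in log2 effective library size, was subtracted. Its 95% interval is exact (Clopper-Pearson, SciPy 1.17.1) and covers counting error only: without molecular identifiers, reads are not independent molecules. The calculation was tested on simulated counts that held sampling noise only, so that test cannot show how the calls behave with other spread between libraries. The libraries differed beyond sampling noise (chi-square over degrees of freedom of 17.4 over 12347 genes), so they were kept as separate replicates. Alternatives were posterior mean TPM, the kallisto-layout table, nuclear protein-coding TPM, DESeq2 1.42.0 size factors, spike-in and total-count scaling, another pseudocount, and each replicate alone.

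All 10 genes are named. Of each pathway list the genes of highest and lowest mean TPM are named, with any gene past 2-fold, except where a gene is not reported here, and of transcripts the leading ones and those with or without the alternative exons of Insr and Igf1. Igf2, Igf2r and Ins2, and the other transcripts named, were added as members of a pair, a list or an exon choice. The 10 genes and all lists were chosen with earlier results of these data known. The length groups, the retained-intron shares and the restriction to protein-coding transcripts were chosen after seeing the data. Genes that overlap the 10 in the annotation held at most 26 counts in a library, the most being Gm38034 within Foxo1. Reads were assigned on the reference genome, and any loss of reads with CAST variants was not measured.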

Additional observations from a re-analysis of the deposited data

How the results depend on the processing

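Foxo1 was higher in replicate 2 under every scaling, pseudocount and table tried. With kallisto-layout counts 2 of the 10 genes were called higher, Igfbp5 (0.10) joining Foxo1, and 2 lower, Igf1r (-0.06) losing its call. The background in those counts was 35.7% higher and 16.0% lower. Spike-in totals moved the median of all genes by -0.13, and 6 genes were then called lower, with Foxo3 at -0.17. Under it Irs2 turned to -0.12 and Igfbp5 to -0.084. Total counts gave 4 lower, adding Foxo3 (-0.09), beside a background of 19.4% higher and 20.8% lower. Under spike-in scaling the background was 7.65% higher and 34.7% lower, and without a count filter 13.9% of genes were higher. The log2 ratio of Igfbp5 over Igfbp4 turned to 1.41 in counts and to 0.96 with protein-coding transcripts only. In counts, which keep transcript length in the ratio, Igfbp5 over Igfbp2 was 2.30, Igf1r over Insr 0.87 and Igf1 over Igf2 -2.02, and Igfbp4 over Igfbp2 was -0.95 with protein-coding transcripts only. At 10 TPM or more stood 8 genes in the kallisto-layout table and 9 when TPM was rescaled to nuclear protein-coding genes, which took Igf1 to 8.90 and Irs1 to 16.5. In single replicates 7 genes stood there in each, and 7 leading transcripts were unchanged. By the sign of the ratio alone, without the interval call, the first gene was higher in both replicates in 4 of the 8 pairs. In replicate 2 alone it was higher in 4 pairs and in replicate 1 alone in 5. A ratio between the replicates cannot be taken without one of them. No paired analysis was possible because the series has 1 group, so no groups share replicate numbers. Isoform shares moved with the table: Igfbp4-203 went from 55.7% to about 0% in the kallisto-layout table. Depth limits others: the Insr short exon rests on 7 and 10.9 counts, and the second leader exon of Igf1 on 6.43 and 18.0.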
